A study of Mus musculus with 18 samples.

Results

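Apoptosis regulators, 9 genes of the mitochondrial pathway of cell death and its control, were followed across the round spermatids (RS) of WT, KO and KI mice. They are the pro-survival genes Bcl2, Bcl2l1 and Bcl2l2, the pore-forming genes Bax and Bak1, the BH3-only genes Bcl2l11 and Bad, the initiator caspase gene Casp9 and the transcription factor gene Trp53. They were chosen by name from the table of counts, 9 of 54232 genes, by a rule that uses no measured value but with earlier results of these data known, because spermatids of both mutants are lost before they elongate. Of the 9, 8 passed the filter on low counts, which 21058 of all genes passed, and Bcl2 did not.

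RS are the round haploid cells left by meiosis, before the nucleus condenses and the cell elongates. They were isolated from testes of mice aged 75 to 85 days, with 6 libraries from WT, 6 from GRTH knock-out (KO) and 6 from GRTH knock-in (KI) mice, and the labels name no treatment. GRTH is the RNA helicase made from Ddx25. KO mice lack it. By the study's description, KI mice carry the human GRTH gene with a missense mutation, which leaves the protein without its phosphorylated form. In both mutants spermiogenesis stops when RS fail to elongate. The strain, and whether a library holds cells of 1 mouse or several, are not given in the sources used here, so that p-values measure the spread between these libraries.

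In the mitochondrial pathway of apoptosis, BAX and BAK1 open pores in the outer mitochondrial membrane. Pro-survival proteins of the BCL2 family hold them in check, and BH3-only proteins relieve that check. Cytochrome c that leaves through the pores binds APAF1 and recruits caspase 9, which activates the effector caspases, and p53 raises the transcription of several genes of this pathway after stress or DNA damage. In the testis the pathway removes surplus and damaged germ cells, and BAX and BCL2L1 are known for balancing germ cell number in the first wave of spermatogenesis.

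Levels of genes are in CPM, each count being divided by the TMM-adjusted size of its library. Totals of counts on genes lay between 18766971 and 26776555 per library. The targeted gene Ddx25 was at 538 to 607 CPM in WT, 47.7 to 90.9 CPM in KO and 0.0456 to 0.519 CPM in 5 of the KI libraries. These are counts at the mouse gene, and how far transcripts of the human gene in KI were counted there was not tested. The library labelled KI 4 stood at 56.9 CPM of Ddx25, within the KO range, and goes against its label. It was also the closest of all libraries to KO 2. Its index of difference from KO 2, where 1 stands for counting noise alone, was 1.59. Within genotypes, 6 further pairs (WT 1 and 2, WT 3 and 4, WT 5 and 6, KO 4 and 5, KI 1 and 2, KI 3 and 5) had an index of 2.12 to 3.02, while every other pair was at 4.64 or more. Whether such pairs are independent samples is not known. Calls on the 9 genes are therefore also given with the 6 pairs summed and, in a separate fit, without the library labelled KI 4. No fit did both.

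Sequence before the start site was available from RefSeq (GRCm38.p6) for all 9 genes. It is shown, 5′ to 3′ on the strand of the gene, for the member that was called in both mutants (Casp9), for the member with the highest level per length (Bcl2l1, the outermost of 3 start sites) and for the member with the lowest (Bcl2). Each run is the 250 bases that end at the base before the start, at chr4:141793362-141793611 on the plus strand, chr2:152831729-152831978 on the minus strand and chr1:106714291-106714540 on the minus strand. Capitals mark GGGCGG, the core of the GC box, and TGACG, a short form of the cAMP response element, on either strand.
Casp9: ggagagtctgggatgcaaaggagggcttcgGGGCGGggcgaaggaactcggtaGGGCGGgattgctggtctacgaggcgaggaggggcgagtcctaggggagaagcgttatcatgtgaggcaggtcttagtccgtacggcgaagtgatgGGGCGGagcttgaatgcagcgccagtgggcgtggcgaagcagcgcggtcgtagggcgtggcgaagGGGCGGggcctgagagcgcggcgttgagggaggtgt
Bcl2l1: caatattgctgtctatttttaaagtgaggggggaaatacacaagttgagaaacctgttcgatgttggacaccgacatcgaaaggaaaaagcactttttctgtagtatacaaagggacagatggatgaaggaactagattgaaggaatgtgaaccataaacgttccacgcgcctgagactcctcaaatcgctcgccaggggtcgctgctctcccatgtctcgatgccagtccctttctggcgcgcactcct
Bcl2: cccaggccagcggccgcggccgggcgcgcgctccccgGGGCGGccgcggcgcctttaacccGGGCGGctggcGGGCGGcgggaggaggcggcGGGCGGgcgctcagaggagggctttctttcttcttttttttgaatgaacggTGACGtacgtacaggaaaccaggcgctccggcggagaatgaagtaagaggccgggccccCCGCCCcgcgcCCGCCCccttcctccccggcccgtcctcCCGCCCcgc

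The window of Casp9 held GGGCGG at 4 positions, that of Bcl2 at 7 and that of Bcl2l1 at 0, where 32.9% of the windows of 27025 genes held it at least once. TGACG, which 17.9% of windows held, was found once in the window of Bcl2 and in neither of the others. The full palindrome TGACGTCA (1.62% of windows), CCAAT (34.5%) and TATAAA (12.97%), each searched on both strands, were in none of the 3 windows, and TGACG is part of the palindrome. G and C made up 66.0% of the bases before Casp9, 74.8% before Bcl2 and 47.6% before Bcl2l1, against a median of 52% over all windows. These are matches of letters and not sites at which binding was measured.

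The levels of the 9 genes spread over 3 orders of magnitude, and their order was the same in each genotype. Per kilobase of exon, the only scale on which genes are compared here, Bcl2l1 was highest in WT at 16.4 ± 1.32 CPM per kilobase (SD, n = 6). Bad followed at 13.01 ± 1.57, apart from Bcl2l1 in every WT library. Bak1 stood at 2.60 ± 0.771 CPM per kilobase, Trp53 at 1.28 ± 0.145 and Bcl2l11 at 1.17 ± 0.117. Trp53 and Bcl2l11 overlapped, so that their order was not resolved. Casp9 at 0.719 ± 0.167 CPM per kilobase and Bax at 0.576 ± 0.0721 overlapped likewise in WT. Bcl2l2 at 0.247 ± 0.0979 and Bcl2 at 0.0130 ± 0.00508 CPM per kilobase closed the list. In KO the ranges of Bak1 and Trp53, of Trp53 and Bcl2l11, and of Bcl2l11 and Casp9 overlapped, and in KI those of all neighbours overlapped except Bad and Bak1, Casp9 and Bax, and Bcl2l2 and Bcl2.

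**Figure D1:**
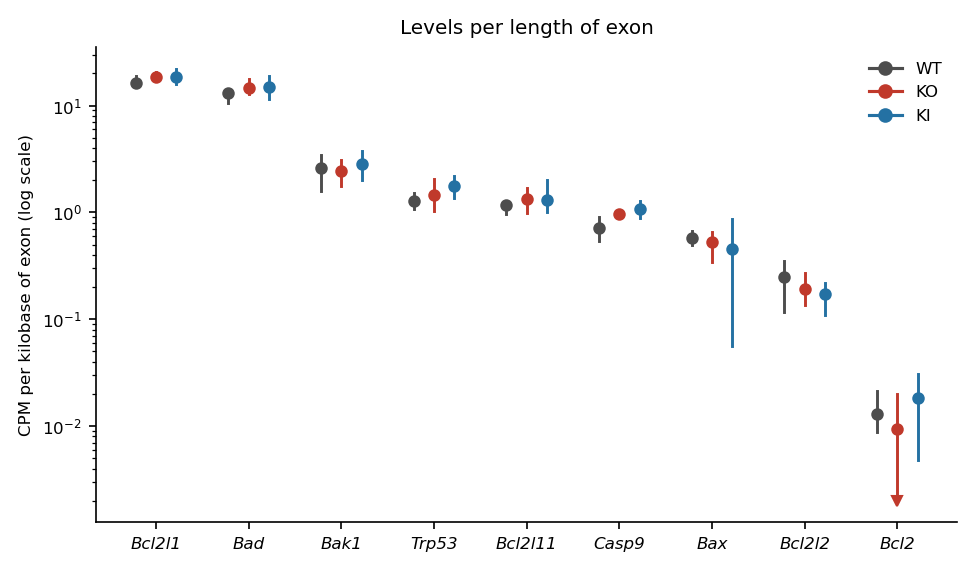
Levels of the 9 genes in CPM per kilobase of exon (log axis) in WT, KO and KI. Points are means of 6 libraries, lines run from the lowest to the highest library, and the arrow marks a KO library with 0 counts of Bcl2. Bcl2l1 and Bad stand above the other genes in each genotype, and Bcl2 lies far below them, at 0.0130 CPM per kilobase in WT.

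Casp9 (ENSMUSG00000028914, GRCm38 chromosome 4, 141793612 to 141815976, plus strand), the initiator caspase that is activated on the apoptosome, was higher in both mutants. In WT its level had a lowest value of 2.79, a median of 3.81 and a highest of 4.75 CPM, from 53 to 110 counts. In KO these were 4.58, 5.10 and 5.41 CPM, from 84 to 138 counts, and in KI 4.59, 5.50 and 6.64 CPM, from 104 to 142 counts. The 6 KO libraries lay close together, 5 of them above every WT library, the close pair KO 4 and 5 included. Of the 6 KI libraries, 4 lay above every WT library. They were KI 2, the close pair KI 3 and 5, and the library labelled KI 4. The WT libraries were uneven, with WT 1, 2 and 4 between 4.31 and 4.75 CPM and WT 3, 5 and 6 between 2.79 and 3.31 CPM. The log2 fold change was 0.44 in KO (standard error 0.15, 95% interval 0.12 to 0.76, adjusted p = 0.0433) and 0.57 in KI (standard error 0.15, 95% interval 0.25 to 0.89, adjusted p = 0.00879) by edgeR's quasi-likelihood test with Benjamini-Hochberg adjustment over all tested genes. These are rises of 1.35-fold and 1.48-fold.

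The call on Casp9 in KO depended on single libraries, on the filter and on the close pairs. Without WT 3 the log2 fold change was 0.37 (edgeR, adjusted p = 0.116) and without WT 5 it was 0.37 (edgeR, adjusted p = 0.107), both above the threshold of 0.1. With no filter on low counts it was 0.40 (edgeR, adjusted p = 0.156). With the close pairs summed it was 0.44, with an adjusted p of 0.185 (edgeR), and over all alternatives its adjusted p ran from 0.0112 to 0.185. The call in KI held under every alternative run at the threshold of 0.1, with adjusted p (edgeR and DESeq2) from 0.00155 to 0.0898. The highest value was that with the close pairs summed. That fit kept the library whose Ddx25 level goes against its KI label, and no fit both summed the pairs and left that library out. Whether the call holds with both changes was not tested.

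Trp53 (ENSMUSG00000059552, chromosome 11, 69580359 to 69591873, plus strand), which encodes p53, was higher in KI. Its lowest, median and highest levels were 4.31, 5.11 and 6.12 CPM in WT, 4.14, 5.62 and 8.26 CPM in KO and 5.51, 7.36 and 8.94 CPM in KI. Of the 6 KI libraries, 4 lay above every WT library, and KI 2 and the library labelled KI 4 lay within the WT range. Of the 6 KO libraries, 2 lay above and 1 lay below all WT libraries. Trp53 changed by 0.47 log2 units in KI (standard error 0.16, 95% interval 0.13 to 0.80, edgeR adjusted p = 0.0366), a 1.38-fold rise, and its value in KO was 0.18 (95% interval -0.15 to 0.52, edgeR adjusted p = 0.469). Without the library labelled KI 4 the value in KI was 0.53 (edgeR adjusted p = 0.0217), and with the close pairs summed it was 0.50 (edgeR adjusted p = 0.228). Over all alternatives its adjusted p ran from 0.0101 to 0.228. Set directly against KO, KI differed by 0.28 (95% interval -0.05 to 0.62, edgeR adjusted p = 0.962), so that no difference between the mutants in Trp53 was called.

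**Figure D2:**
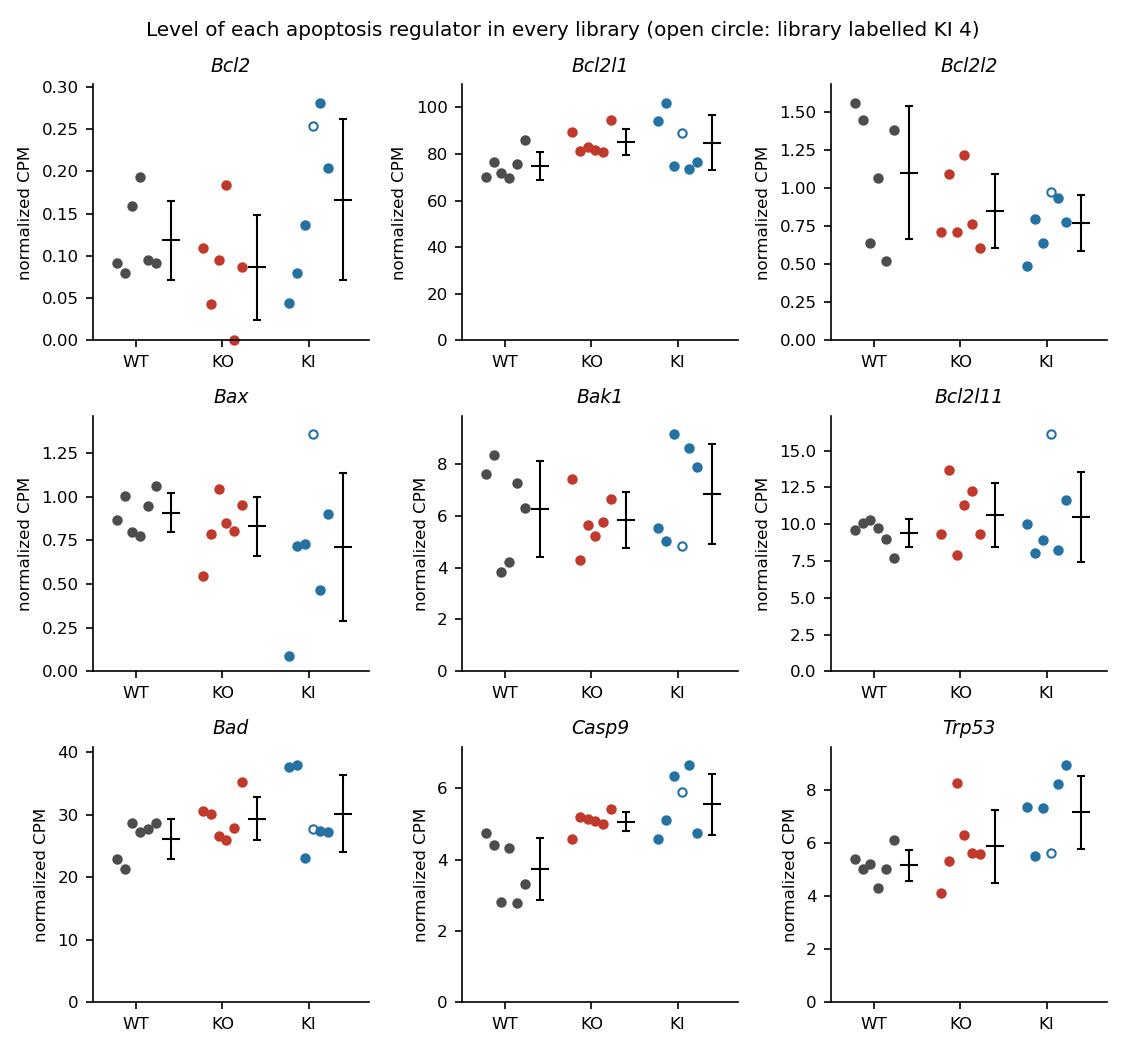
Normalized CPM of each of the 9 genes in every library of WT, KO and KI. Circles are libraries in the order of their numbers, the open circle is the library labelled KI 4, and bars give the mean ± SD of 6 libraries. Casp9 is above every WT library in 5 KO and 4 KI libraries, the library labelled KI 4 among the latter. The genotypes overlap in every panel.

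By this rule 1 of the 8 tested members, Casp9, was higher and 0 were lower in KO, where 16.4% of all tested genes were called higher and 13.5% lower. In KI the 2 higher members of 8 were Casp9 and Trp53, with 0 lower, against 16.1% and 15.4% of all tested genes. At an unadjusted p under 0.05 edgeR gave these same 1 and 2 members in KO and KI. Without the library labelled KI 4 the 2 members called in KI were again Casp9 and Trp53, with 14.5% of all tested genes higher and 15.8% lower. With the close pairs summed 0 members were called in KO and 1 in KI, Casp9, where 8.11% and 7.02% of all tested genes were called higher. With total counts in place of TMM factors 3 members were called in KO and 4 in KI, Bcl2l1 and Bad being added in each, where 24.8% and 26.7% of all tested genes were higher. The median log2 fold change of the 8 members was 0.17 in KO and 0.17 in KI, beside 0.03 and 0.05 over all tested genes. None of the 8 was past 1 log2 unit in KO or KI (edgeR's glmTreat), where 1.73% and 1.95% of all tested genes were, with 0 at an unadjusted p under 0.05 by edgeR or DESeq2 and 0 called by DESeq2. In KI against KO 0 of 8 members were called, where edgeR called 0.0997% of all tested genes, 0 members had an unadjusted p under 0.05 by edgeR and 1, Trp53, by DESeq2, and DESeq2 called 0. With KI 4 left out edgeR called 0.522% of all tested genes in KI against KO and again 0 members, with 1, Trp53, at an unadjusted p under 0.05.

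**Figure D3:**
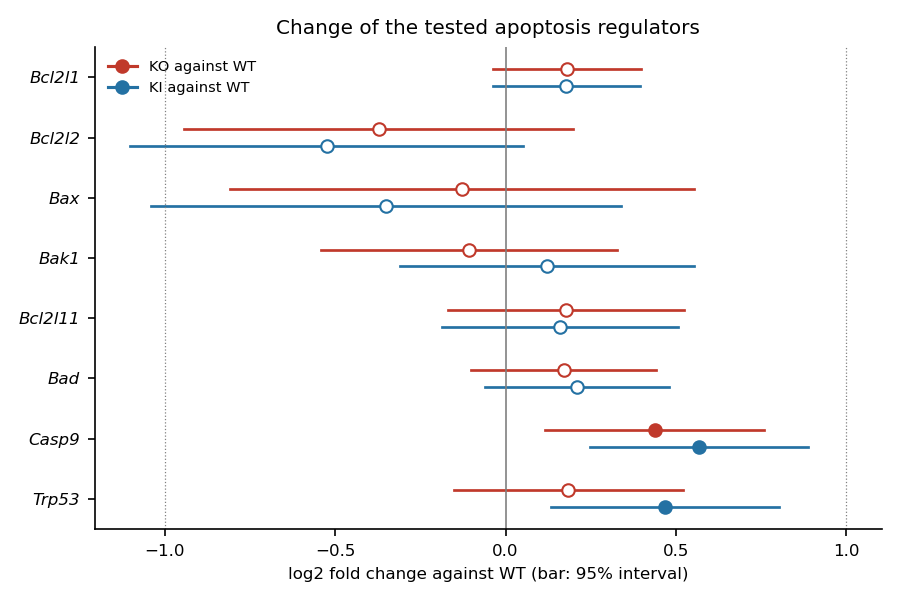
Log2 fold change of the 8 tested genes in KO and in KI against WT, with 95% intervals. Filled points have an adjusted p under 0.1 (edgeR), and dotted lines mark a change of 1 log2 unit. The intervals of Casp9 lie above 0 in both mutants and that of Trp53 only in KI, and the intervals of Bcl2l2 and Bax in KI reach beyond -1.

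Of the 3 pro-survival members, Bcl2l1 (ENSMUSG00000007659, chromosome 2, 152780668 to 152831728, minus strand), which makes BCL-XL, had the highest level per kilobase. Its lowest, median and highest levels were 69.9, 73.8 and 86.1 CPM in WT, 80.8, 82.4 and 94.5 CPM in KO and 73.6, 82.7 and 101.7 CPM in KI. The KO libraries were above all WT libraries in 2 cases and the KI libraries in 3, and the genotypes overlapped. Changes of 0.18 log2 units in KO (95% interval -0.04 to 0.40, edgeR adjusted p = 0.235) and 0.18 in KI (95% interval -0.04 to 0.40, edgeR adjusted p = 0.234) did not pass the test. The intervals bound the level in either mutant at 1.32 times that in WT. With total counts in place of TMM factors, which moved the median of all genes by more than 0.1 log2 units, Bcl2l1 was called in both mutants, at 0.30 (adjusted p = 0.0257) and 0.32 (adjusted p = 0.0163, both edgeR), with adjusted p over all alternatives from 0.0257 to 0.530 in KO and from 0.0163 to 0.525 in KI. The median shift under that scaling was to 0.15 in KO and 0.20 in KI, so that Bcl2l1 stood 0.15 and 0.12 above it.

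Bcl2l2 (ENSMUSG00000089682, chromosome 14, 54883377 to 54888234, plus strand), which makes BCL-W, was scarce. Its lowest, median and highest levels were 0.521, 1.22 and 1.55 CPM in WT, 0.606, 0.737 and 1.21 CPM in KO and 0.486, 0.787 and 0.974 CPM in KI, from 11 to 36 counts per library. All 3 genotypes overlapped. Bcl2l2 had a log2 fold change of -0.37 in KO (95% interval -0.94 to 0.20) and -0.53 in KI (95% interval -1.10 to 0.05), with edgeR adjusted p of 0.376 and 0.184. At this depth a fall to 0.466 times the WT level in KI could not be told from none. Of its 4462 exon bases, 594 are shared on the same strand with exons of Gm20521, so that its counts are uncertain.

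Bcl2 (ENSMUSG00000057329, chromosome 1, 106538178 to 106714274, minus strand), the founding member of the family, was at the edge of detection. It had 15 counts over the 6 WT libraries, 12 over the KO libraries and 23 over the KI libraries, with 0 to 6 in any 1 library. In 5 of the 6 WT, 5 of the 6 KO and 3 of the 6 KI libraries it was at or under the floor of 3 counts, and no fold change is given. Mcl1, a further pro-survival gene that was no member, stood at 19.6 CPM per kilobase in WT, the highest of its list, and its log2 fold changes of -0.09 and -0.14 were not called.

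The pore-forming genes differed from each other in level. Bak1 (ENSMUSG00000057789, chromosome 17, 27019810 to 27029009, minus strand) had lowest, median and highest levels of 3.82, 6.77 and 8.35 CPM in WT, 4.28, 5.71 and 7.42 CPM in KO and 4.83, 6.70 and 9.13 CPM in KI. Its levels lay close within several of the close pairs, with 3.82 and 4.22 CPM in WT 3 and 4, 7.59 and 8.35 CPM in WT 1 and 2, and 9.13 and 8.60 CPM in KI 3 and 5. For Bak1 the log2 fold change was -0.11 in KO (95% interval -0.54 to 0.33, edgeR adjusted p = 0.779) and 0.12 in KI (95% interval -0.31 to 0.55, edgeR adjusted p = 0.729). Bax (ENSMUSG00000003873, chromosome 7, 45461697 to 45466898, minus strand) was lower in level, with a lowest, median and highest of 0.776, 0.908 and 1.06 CPM in WT, 0.545, 0.823 and 1.05 CPM in KO and 0.0883, 0.724 and 1.36 CPM in KI. KI was the widest group for Bax, from 2 counts in KI 1 to 32 counts in the library labelled KI 4, and 4 of the 6 KI libraries lay below every WT library while 1 lay above.

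Bax had a log2 fold change of -0.13 in KO (95% interval -0.81 to 0.55, edgeR adjusted p = 0.839) and -0.35 in KI (95% interval -1.04 to 0.34, edgeR adjusted p = 0.498). Without the library labelled KI 4 the value in KI was -0.64 (95% interval -1.31 to 0.04, edgeR adjusted p = 0.170). Of the 1576 exon bases of Bax, 192 are shared with exons of Gm45808 on the same strand. Set against each other per kilobase in the same library, Bak1 was 3.14 to 5.72 times Bax in WT, 3.54 to 8.91 times in KO and 2.33 to 40.9 times in KI. Bcl2l1 was 26.1 to 31.1 times Bax in WT with a median of 27.9, 27.3 to 56.3 times in KO with a median of 34.4, and 22.6 to 366 times in KI with a median of 42.0. The highest ratios in KI rest on the 2 counts of Bax in KI 1.

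Neither of the BH3-only members passed the test in KO or KI. Bad (ENSMUSG00000024959, chromosome 19, 6941861 to 6951898, plus strand), whose protein is held inactive by phosphorylation, had lowest, median and highest levels of 21.3, 27.5 and 28.7 CPM in WT, 25.9, 29.0 and 35.3 CPM in KO and 23.1, 27.5 and 37.9 CPM in KI. KI 1 and KI 2, a close pair, stood at 37.7 and 37.9 CPM, and the other KI libraries at 23.1 to 27.7 CPM, within the WT range. Against WT the log2 fold change of Bad was 0.17 in KO (95% interval -0.10 to 0.44, edgeR adjusted p = 0.394) and 0.21 in KI (95% interval -0.06 to 0.48, edgeR adjusted p = 0.269). With total counts alone Bad was called in both, at 0.29 (edgeR adjusted p = 0.0802) and 0.35 (edgeR adjusted p = 0.0315), and its adjusted p over all alternatives ran from 0.0802 to 0.638 in KO and from 0.0315 to 0.554 in KI.

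Bcl2l11 (ENSMUSG00000027381, chromosome 2, 128126038 to 128162547, plus strand), which makes BIM, had lowest, median and highest levels of 7.73, 9.67 and 10.3 CPM in WT, 7.88, 10.3 and 13.7 CPM in KO and 8.06, 9.46 and 16.1 CPM in KI. The highest value of each mutant came from the closest pair of the series, 13.7 CPM in KO 2 and 16.1 CPM in the library labelled KI 4. Bcl2l11 had a log2 fold change of 0.18 in KO (95% interval -0.17 to 0.52, edgeR adjusted p = 0.505) and 0.16 in KI (95% interval -0.19 to 0.51, edgeR adjusted p = 0.545). Without the library labelled KI 4 it was 0.00 in KI (95% interval -0.31 to 0.30, edgeR adjusted p = 0.991).

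KI and KO share the WT libraries as controls, so that their values against WT are not independent of each other. When KI was compared with KO itself, the log2 difference lay between -0.22 (Bax) and 0.28 (Trp53). It was 0.13 for Casp9 (95% interval -0.19 to 0.44), 0.00 for Bcl2l1 (95% interval -0.22 to 0.21) and -0.02 for Bcl2l11 (95% interval -0.36 to 0.33), and every adjusted p was 0.962 or higher (edgeR). For Bcl2l2 and Bax, both scarce, the intervals ran from -0.74 to 0.43 and from -0.91 to 0.47, and differences within these limits could not be told from none. Leaving out KI 4 gave a difference of -0.51 for Bax (95% interval -1.18 to 0.17), -0.18 for Bcl2l11 (95% interval -0.49 to 0.12), 0.31 for Bak1 (95% interval -0.13 to 0.75) and 0.34 for Trp53 (95% interval 0.01 to 0.68). None of these was called, with edgeR adjusted p of 0.649, 0.717, 0.666 and 0.534, the last being the lowest of the 8 members.

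The genes whose levels followed that of Casp9 most closely across the 18 libraries were Glyctk, Msi1 and Ccdc36. Likeness was measured as the root mean square difference of log2 CPM after centring each gene on its mean, among 16904 genes with a mean of at least 1 CPM. The difference was 0.148, 0.168 and 0.187 for these genes, and their own log2 fold changes in KO were 0.41, 0.55 and 0.38. The measure includes the differences between genotypes, so that fold changes near that of Casp9 follow from the choice. How small a difference arises by chance among so many genes was not tested. For Bcl2l2, the member with the smallest p among those lower in KO, the closest genes were Fam219b, Tpm3-rs7 and Adora3, at 0.298, 0.307 and 0.314.

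Beyond the 9 members, 65 genes of the apoptosis pathway were listed in groups by role, and 48 of them were tested. In KO 14 were higher and 1 lower, where 16.4% of all tested genes were higher and 13.5% lower, and in KI 15 were higher and 0 lower, against 16.1% and 15.4%. These shares also stand behind the counts of each group that follow. Their median log2 fold change was 0.28 in KO and 0.21 in KI, beside 0.03 and 0.05 over all tested genes. By glmTreat 0 were past 1 log2 unit in either comparison, and 0 had an unadjusted p under 0.05 in that test by edgeR or DESeq2. In KI against KO 0 of the 48 were called by edgeR or DESeq2, and 1 and 7 had an unadjusted p under 0.05. Without the library labelled KI 4, 14 were higher in KI (14.5% of all tested genes) and 1 was lower, Cycs, the somatic cytochrome c gene (15.8%). With the close pairs summed, 7 were higher in KO, namely Pmaip1, Birc3, Rock1, Trp63, Sesn1, Sesn2 and Btg2. In KI 9 were higher, the same 7 with Ripk1 and Cflar, and 0 were lower in either. Birc3 passed the filter in this fit and not with all libraries. It had 2 to 4 counts per WT library, 4 to 14 in KO and 7 to 14 in KI. With WT near the floor, it reached the filter through the mutant libraries, where it is high. Its calls are therefore no support for a rise. In that fit 8.11% and 7.02% of all tested genes were higher.

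Among the BH3-only genes 1 of 6 tested was higher in each mutant, Pmaip1, which makes NOXA. Pmaip1 had lowest, median and highest levels of 0.679, 0.976 and 1.89 CPM in WT, 1.53, 2.38 and 3.09 CPM in KO and 1.63, 2.41 and 3.27 CPM in KI. WT 6 was the high WT library, and it alone reached into the range of the mutants. The log2 fold change was 1.16 in KO (standard error 0.25, edgeR adjusted p = 0.00140) and 1.23 in KI (standard error 0.25, edgeR adjusted p = 7.53e-04), the largest of the pathway genes called in either mutant. Bid, which links the death receptors to the mitochondria, had log2 fold changes of 0.30 and 0.07 that were not called. The list of pro-survival genes had 3 tested of 8, and that of pore-forming genes 2 of 3, with 0 called in either mutant by edgeR or DESeq2, 0 at an unadjusted p under 0.05 by edgeR and 1 by DESeq2, Bcl2l1 in KI.

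Of the 9 genes listed for cytochrome c, the apoptosome and mitochondrial factors, all were tested and Casp9 was the only one called, higher in both mutants. Vdac2, a channel of the outer mitochondrial membrane that binds BAK1, was the highest of this list in WT at 119.7 CPM per kilobase, and its log2 fold changes of -0.21 in KO and -0.16 in KI were not called. Endog and Aifm1, which make nuclease and flavoprotein factors released from mitochondria, had log2 fold changes of 0.65 and 0.57 in KO with adjusted p of 0.172 and 0.186 (edgeR), and of -0.08 and 0.20 in KI, also not called. All 5 caspase genes listed were tested. In KO Casp9 and Casp2 were higher and Casp6 was lower, and in KI Casp9 was higher. Casp2 changed by 0.37 and Casp6 by -0.44 in KO (edgeR adjusted p = 0.0907 and 0.0963), and the calls on Casp2 and Casp6 were lost with the close pairs summed.

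Of the caspase inhibitors 2 of 4 tested were higher in each mutant, where 16.4% of all tested genes were higher in KO and 16.1% in KI. Birc6, a very large inhibitor with a ubiquitin-conjugating domain, had log2 fold changes of 0.28 in KO and 0.48 in KI (edgeR adjusted p = 0.0743 and 0.00267). Xiap, which binds caspase 9 and the effector caspases directly, was called in KO at 0.65 (edgeR adjusted p = 0.0843), and its value in KI was 0.30. Birc2, the highest of this list in WT at 39.0 CPM per kilobase, was called in KI at 0.40 (edgeR adjusted p = 0.0265), and its value in KO was 0.28 (edgeR adjusted p = 0.130). The calls on Birc6, Xiap and Birc2 were lost with the close pairs summed. Of the caspase substrates 2 of 5 were higher in both mutants, the kinase gene Rock1, at 0.51 and 0.67, and Parp1, at 0.49 and 0.48 (edgeR adjusted p = 0.00172 and 9.65e-05, then 0.0267 and 0.0263). With the close pairs summed the calls on Rock1 held and those on Parp1 were lost. Parp1 was at 115.4, 125.8 and 101.1 CPM in KI 1, KI 2 and the library labelled KI 4. In KI 3, 5 and 6 it was at 73.89, 73.9 and 79.36 CPM, within its WT range of 51.39 to 84.35 CPM. Its call in KI held without the library labelled KI 4. Acin1, the highest of these in WT at 44.9 CPM per kilobase, and Dffa, the inhibitor of the DNA-cutting nuclease, were not called.

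Of the death receptors, ligands and adaptors 6 of 10 were tested. Fadd, the adaptor that binds caspase 8, was higher by 0.58 in KO and 0.65 in KI (edgeR adjusted p = 0.0504 and 0.0281). Ripk1, a kinase of the same complexes and the highest of the list in WT at 1.69 CPM per kilobase, was higher by 0.30 and 0.50 (edgeR adjusted p = 0.0580 and 0.00208). With the close pairs summed the calls on Fadd in both mutants and on Ripk1 in KO were lost. Cflar, which makes the caspase 8 inhibitor FLIP, was called in KI at 0.66, with a value of 0.32 in KO, and the difference between the mutants was not called. Fasl had log2 fold changes of 0.41 and 0.22 that were not called.

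Of the p53 family and its regulators 7 of 8 were tested. Besides Trp53 itself in KI, Trp63 was higher by 0.69 in KO and 0.62 in KI (edgeR adjusted p = 0.0104 and 0.0186), and Trp53bp2, which makes a partner of p53, by 0.30 and 0.32 (edgeR adjusted p = 0.0952 and 0.0746). The call on Trp53bp2 in KI was lost without the library labelled KI 4, at 0.31 with an adjusted p of 0.112 (edgeR). Mdm4, an inhibitor of p53, was called in KI at 0.24. With the close pairs summed the calls on Trp53bp2 and Mdm4 were lost. Mdm2, the ubiquitin ligase that removes p53, was the highest of the list in WT at 50.3 CPM per kilobase and was not called, with 0.27 in KO and 0.22 in KI. Of 18 listed targets of p53, 14 were tested, 5 were higher in KO and 5 in KI, and 0 were lower, beside 16.4% and 16.1% of all tested genes higher and 13.5% and 15.4% lower. Btg2, an antiproliferative gene, rose from 2.15 ± 0.411 CPM in WT to 4.43 ± 1.001 CPM in KO and 4.19 ± 1.29 CPM in KI (SD, n = 6), by 1.05 and 0.97 on the log2 scale (edgeR adjusted p = 5.29e-04 and 0.00101). Every KO and KI library of Btg2 was above every WT library.

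Sesn1, a stress-induced regulator of growth signalling, rose by 0.63 in KO and 0.62 in KI (edgeR adjusted p = 8.75e-04 and 9.07e-04), and Pmaip1 belongs to this list too. Sesn2 was also called in both mutants, Trp53inp1 in KO and Zmat3 in KI. The calls on Trp53inp1 and Zmat3 were lost with the close pairs summed. The targets Bax, Bbc3 and Cdkn1a were not called in either mutant, with log2 fold changes of -0.13, -0.06 and 0.28 in KO and -0.35, -0.31 and 0.08 in KI.

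**Figure D4:**
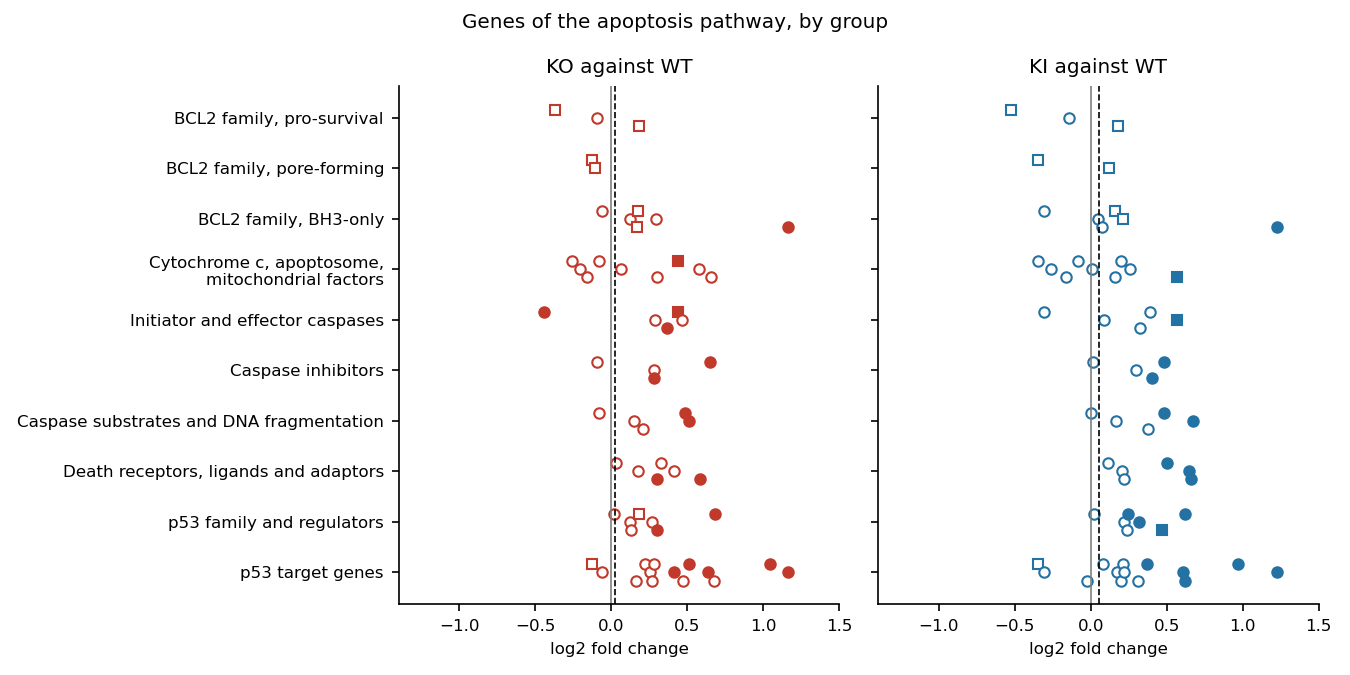
Log2 fold change of every tested gene of the apoptosis lists in KO (left) and KI (right) against WT. Squares are the members and circles other genes, filled symbols have an adjusted p under 0.1 (edgeR), the dashed line is the median of all tested genes, and a gene in more than 1 list is drawn in each. Filled symbols lie to the right of 0 except Casp6 in KO, and Pmaip1 is farthest right in both panels.

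Calls on marker genes of testis cell types were counted in the same way. Of all tested genes 16.4% were higher and 13.5% lower in KO, and 16.1% and 15.4% in KI. These shares stand behind the counts of each list that follow. With 4 to 7 genes tested per list, 1 call is near what these shares give. All 5 Leydig cell markers were called higher in both mutants, also without the library labelled KI 4. In KI the rise was uneven. Cyp17a1 was at 16.03, 25.75 and 22.56 CPM in KI 1, KI 2 (a close pair) and the library labelled KI 4. In KI 3, 5 and 6 it was at 4.47, 3.27 and 5.47 CPM, within its WT range of 2.29 to 6.85 CPM. Cyp11a1 and Insl3 were split likewise, while Star was above every WT library in all KI libraries. Calls on markers with the close pairs summed are not given here. Their summed levels were 9.68 to 19.7 CPM in WT, 29.6 to 51.0 CPM in KO and 13.2 to 65.7 CPM in KI. All 7 genes listed as elongating spermatid markers were lower, with 13900 to 19350 CPM in WT, 1626 to 4080 CPM in KO and 2145 to 3342 CPM in KI. This list includes Prm2 and Tnp2, which by the paper's account are already transcribed in RS and stored there. Its sum is therefore not a measure of the share of elongating cells. No marker was at or under 3 counts in every library, but Fshr, a Sertoli cell marker, was so in all 6 WT, all 6 KO and 5 of the 6 KI libraries, the exception being the library labelled KI 4 with 6 counts. Round spermatid markers summed to 803 to 1311 CPM in WT, 502 to 1186 CPM in KO and 552 to 790.5 CPM in KI, with 0 of 7 higher and 1 lower in KO and 3 lower in KI. Spermatocyte markers, at 769 to 1038 CPM in WT, had 3 of 7 higher and 2 lower in KO and 2 higher and 1 lower in KI. Spermatogonial markers had 2 of 7 higher in KO and 1 in KI, macrophage markers 1 of 4 tested higher in each, Sertoli cell markers 1 of 6 tested lower in KO and 2 in KI, and endothelial and peritubular markers 1 of 4 higher in KO and 1 lower in each. When KI 4 was left out, the calls in KI on Stra8, a spermatogonial marker, and Dmc1, a spermatocyte marker, were lost (0.44 and 0.32, edgeR adjusted p = 0.221 and 0.213). Spermatogonial markers then had 0 of 7 higher in KI and 3 in KO, with Zbtb16 added. In that fit 14.5% of all tested genes were higher in KI, and 3581 of 21257 in KO. In bulk libraries a change in the share of a cell type and a change of RNA per cell cannot be told apart. The part of these differences in the levels of Casp9, Trp53 and the other apoptosis genes was not tested.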

How the data were processed

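Total RNA of RS was sequenced in stranded libraries prepared with no polyA step. The authors trimmed the reads (cutadapt), placed them on GRCm38 (STAR) and, with featureCounts, assigned unique fragments to genes of GENCODE M18, and deposited raw counts, which were used unchanged, with groups from the labels. Symbols and positions come from GENCODE M21 on the same build, and 54079 of 54232 identifiers matched. Counts were filtered with filterByExpr, scaled by TMM and fitted with edgeR 4.0.16 (R 4.3.3), as 1 quasi-likelihood model of genotype over 18 libraries. Changes of any amount were tested with glmQLFTest and changes past 1 log2 unit with glmTreat, at a Benjamini-Hochberg adjusted p of 0.1 over all tested genes. Floors cover counting error only, since PCR copies are not independent molecules. Alternatives were other scalings (DESeq2 1.42.0 size factors, total counts), DESeq2, no filter or 10 counts in every library, fits of 2 genotypes, a replicate block, close pairs summed, an adjusted p of 0.05 and each library left out. The interval null of glmTreat and the summing of close pairs for the pathway lists were added after seeing the data.

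The 9 genes and all lists were chosen with earlier results of these data known. Of the pathway lists, the text names genes past 1 log2 unit, in each list the 3 genes with the smallest p in KO and the highest per length in WT, and those of counts of 5 or fewer. Genes named outside this rule (Bbc3, Cdkn1a and the genes called with close pairs summed) were chosen after their values were seen. Another gene of these lists was left out and is not reported here, and miRNA levels were not analysed here.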

Additional observations from a re-analysis of the deposited data

Results flagged for a closer look

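Of 99 combinations of a gene and a genotype that were checked, 5 had 1 library apart from the other 5 by Dixon's criterion, which chance alone meets in about 1 in 20. Ddx25 was at 56.9 CPM in the library labelled KI 4, the highest of KI. Btg2 was also highest there, at 6.73 CPM, and Acin1 lowest, at 370.5 CPM. Pmaip1 was at 1.89 CPM in WT 6, the highest of WT, and Fadd at 5.67 CPM in KI 2, the highest of KI. None of the 9 members met the criterion in any genotype.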

How the results depend on the processing

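The number of members changed by any amount, 1 in KO and 2 in KI, was 3 and 4 with total counts alone (Bcl2l1 and Bad added in each, where 24.8% and 26.7% of all tested genes were higher), 0 in KO with no filter on low counts, and 0 and 1 with the close pairs summed. Leaving out 1 library gave 0 to 1 in KO, 0 without WT 3 or WT 5, and 2 to 3 in KI, with Bcl2l2 added without WT 5 and Bcl2l1 without WT 6 (edgeR adjusted p = 0.0746 and 0.0896). No member passed 1 log2 unit under any alternative run, the interval null of glmTreat included. With the close pairs summed (3, 5 and 4 samples, fewer than the 18 libraries) 7 other pathway genes were called higher in KO, beside 14. In KI 9 were called higher, beside 15. The 7 and the 9 each include Birc3, which was not tested with all libraries, so that fewer of the first calls were kept. Those lower in KO went from 1 to 0, and without the library labelled KI 4 the lower genes in KI went from 0 to 1. With the exon length of the reference annotation, 2558 in place of 2007 bases, Bad was at 10.2 CPM per kilobase in WT. With the replicate number as a block, 1 and 2 members were called, and over all genes 3360 were higher and 2905 lower in KO, beside 3461 and 2836. Correlations of deviations between same-numbered libraries ran from -0.44 to 0.48, with 7 of 18 above 0.1. In 7 of 36 cases a library correlated best with its own number. Each match was picked among 6 libraries, so that some arise by chance. No pairing by number was seen over the libraries as a set, and whether single numbers pair libraries is not settled by this check.

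Signs turned only in changes that were not called. In KO the log2 fold change of Bak1 was 0.0065 with total counts alone. In KI against KO, Bcl2l1 was 0.0375 with DESeq2 size factors, 0.0198 with total counts alone, 0.057 with no filter, 0.0378 with DESeq2 and 0.0606 with only the 2 genotypes fitted, and Bcl2l11 was 0.0171, 0.004, 0.0307, 0.017 and 0.035 in the same order and 0.1352 with the close pairs summed. Leaving out 1 library gave -0.0608 to 0.0614 for Bcl2l1, -0.5081 to 0.007 for Bax, -0.1824 to 0.0661 for Bcl2l11 and -0.0373 to 0.1052 for Bad in KI against KO, and -0.0035 to 0.2429 for Bcl2l11 in KI against WT. The causes were not tested. Depth limits Bcl2, Bcl2l2 and Bax, each with 36 or fewer counts in every library.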
